A study of Mus musculus with 2 samples.

Results

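Bhlha15, Sox9, Sox10, Ascl3, Meis2, Foxa1 and Foxi1, 7 transcription factor genes that mark or control epithelial lineages of salivary and related glands, were followed across all cell classes of mouse parotid gland. They were taken by symbol, and all 7 were present among the 48825 genes of both count matrices. The study compared the parotid gland of control C3H mice with that of C3H mice given 6 Gy per day to the head and neck on 5 days, 30 Gy in total, and collected 10 months after irradiation (IR). The irradiated mice were 6 to 10 weeks old at irradiation, and both groups were 1 year old when the glands were collected. All mice were wild-type females, and each condition is 1 single-cell library made from the glands of 2 mice pooled, with the control mice unirradiated. With 1 library per condition there is no replicate of either condition, so every value below is a description of these 2 libraries. The 95% intervals printed with counts, ratios and shares cover counting error only, not the spread between mice.

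The gland holds acinar cells that secrete saliva proteins, intercalated and striated ducts that conduct and modify saliva, and myoepithelial cells (MECs) that squeeze the acini. Bhlha15 (also called Mist1) is a basic helix-loop-helix factor of serous secretory cells that scales up the secretory apparatus, and plasma cells use it as well. Sox9 is an HMG-box factor of duct and progenitor cells and of cartilage and some stromal cells. Sox10, a related factor, is known in acinar, intercalated duct and myoepithelial lineages of exocrine glands and in Schwann cells and melanocytes. Meis2 is a homeodomain factor that binds DNA with Pbx partners. Foxa1 is a forkhead factor of endoderm-derived and other gland epithelia. Foxi1, another forkhead factor, is the master regulator of ionocytes, the proton and chloride transporting cells of kidney, inner ear, airway and salivary duct, and Ascl3 is a basic helix-loop-helix factor of a duct cell population of salivary glands and of airway ionocytes.

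On mouse build GRCm38 the genes lie at chr5:144190286-144194441 on the plus strand (Bhlha15), chr11:112782224-112787760 on the plus strand (Sox9), chr15:79154908-79165240 on the minus strand (Sox10), chr7:109727465-109731726 on the minus strand (Ascl3), chr2:115863064-116065839 on the minus strand (Meis2), chr12:57540628-57546916 on the minus strand (Foxa1) and chr11:34204338-34208089 on the minus strand (Foxi1). All 7 are annotated as protein coding. Promoters of 5 of the 7 were matched in RefSeq (GRCm38.p6), those of Bhlha15, Ascl3, Meis2, Foxa1 and Foxi1. The 250 bases before the start of Bhlha15 (chr5:144190036-144190285, plus strand), Ascl3 (chr7:109731733-109731982, minus strand) and Foxi1 (chr11:34208090-34208339, minus strand) are shown because Bhlha15 was the factor most concentrated in secretory cells and because Ascl3 and Foxi1 had most of their UMIs in a few cells of the same duct class. They are written 5′ to 3′ on the strand of the gene, and capitals mark an E-box (CANNTG, the motif that basic helix-loop-helix factors bind) or a forkhead motif (TGTTTAC or TATTTAC), read on both strands.

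Bhlha15: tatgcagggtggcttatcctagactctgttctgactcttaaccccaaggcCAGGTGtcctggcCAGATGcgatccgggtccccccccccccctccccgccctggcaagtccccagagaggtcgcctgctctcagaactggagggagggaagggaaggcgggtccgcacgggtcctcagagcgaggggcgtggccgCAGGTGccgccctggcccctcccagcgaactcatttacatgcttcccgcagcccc

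Ascl3: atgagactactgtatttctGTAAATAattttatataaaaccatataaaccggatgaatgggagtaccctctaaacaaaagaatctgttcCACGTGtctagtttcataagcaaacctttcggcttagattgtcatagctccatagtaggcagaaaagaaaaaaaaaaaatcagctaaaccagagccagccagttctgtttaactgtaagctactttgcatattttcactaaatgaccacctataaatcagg

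Foxi1: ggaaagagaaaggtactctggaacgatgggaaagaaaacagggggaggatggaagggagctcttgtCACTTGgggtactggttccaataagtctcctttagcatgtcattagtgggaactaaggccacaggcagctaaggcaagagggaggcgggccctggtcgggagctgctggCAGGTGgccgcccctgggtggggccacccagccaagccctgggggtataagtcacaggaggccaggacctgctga

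The Bhlha15 window held 3 E-boxes and no forkhead motif, the Ascl3 window held 1 of each, and the Foxi1 window held 2 E-boxes and no forkhead motif. An E-box was present in 66.2% of the 32851 promoter windows of the same 250 bases and a forkhead motif in 5.76%. Of the other windows, that of Foxa1 held 1 E-box and 1 forkhead motif, and that of Meis2 held neither. These matches are letters in a window and were not tested as binding sites.

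The control library held 5550 barcodes (median 2253 unique molecular identifiers (UMIs) per barcode, each UMI marking 1 captured RNA molecule) and the IR library 7793 (median 2087). Cells with at least 200 genes and under 5% mitochondrial UMIs were kept, 3378 control and 5286 IR cells with medians of 2907.5 and 2461.5 UMIs, and 12 barcodes occurred in both libraries. The cells were clustered without the 7 genes, and clusters were named by fixed marker lists. Each class is named after the cell type whose markers it held, as "acinar-like" and so on, and the suffix is left out below. There were 386 control and 385 IR acinar cells (10 of 10 markers), 241 and 233 Etv1+ cells (8 of 8, together with all 10 acinar markers), 127 and 149 intercalated duct cells (7 of 7), 90 and 77 striated duct cells (5 of 7, with the other 2 at 0), 18 and 27 MECs (9 of 9), 31 and 17 stromal cells (7 of 7) and 79 and 42 endothelial cells (7 of 7). Other markers were also raised. The intercalated duct class held 8 MEC and 6 Etv1+ markers, and the striated duct class 6 intercalated duct, 3 Etv1+ and 3 red blood cell markers. The MEC class held 7 endothelial, 5 stromal, 4 Etv1+ and 4 Schwann cell markers, and the endothelial class 4 MEC and 3 stromal markers. At least 3 MEC markers were seen in 6 of the 18 control and 4 of the 27 IR cells of the MEC class. A single cell held 373 of the 881 control UMIs of MEC markers in that class, and 1 held 166 of the 367 in IR. Levels of the MEC class are thus those of a mixed group. The stromal and B cell classes each held 3 dendritic cell markers. Their part in the levels of the factors was not tested. The Etv1+ class is a group of secretory cells marked by the ETS factor Etv1. The first 4 of these classes, 844 cells in each library, are called epithelial below. B cells (838 and 836) and T and NK cells (1235 and 2952) were the largest other classes. Depth differed between classes and libraries. The Etv1+ class had a median of 20306 UMIs per cell in control and 5414 in IR. It consisted of a shallow part (67 control and 92 IR cells, medians 1044 and 1026.5 UMIs) and a deep part (174 and 141 cells, medians 36835.5 and 20724). Levels are therefore given as CPM, the UMIs of a gene over all UMIs of the class, scaled to a common total. CPM values are also not independent of each other: a fixed list of 16 abundant secretory genes took 61.1% of control and 57.1% of IR UMIs in Etv1+ cells and 69.3% and 66.1% in acinar cells. A low level of a gene in a class cannot be told apart from a small share of cells that hold it.

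Of the 7 genes, 4 could be measured, namely Meis2, Sox9, Bhlha15 and Sox10, and for 3 genes, Ascl3, Foxi1 and Foxa1, the kept cells held only a few UMIs. Over all barcodes Meis2 had 1079 UMIs in control and 934 in IR, Sox9 722 and 435, Bhlha15 596 and 437, and Sox10 116 and 87. Ascl3 had 11 UMIs in control, 1 in each of 11 barcodes, and 47 in IR, in 18 barcodes with up to 14 each. Foxi1 had 10 UMIs in 5 control barcodes and 23 in 10 IR barcodes, and Foxa1 had 7 and 4. The mitochondrial limit did not touch all 7 alike. Barcodes over the limit held 8.87% of all control UMIs and 11.3% of all IR UMIs. They held 12.4% (95% interval 9.88 to 15.3) and 17.4% (14 to 21.3) of the Bhlha15 UMIs, and 19.9% (17.6 to 22.4) and 28.3% (25.4 to 31.3) of the Meis2 UMIs. For Foxi1 they held 7 of 10 UMIs in control and 18 of 23 in IR, and for Ascl3 3 of 11 in control and 40 of 47 in IR, 85.1% (71.7 to 93.8). After the limits, 6 UMIs of Ascl3 remained in each library, 3 and 5 of Foxi1, and 5 and 4 of Foxa1.

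**Figure D1:**
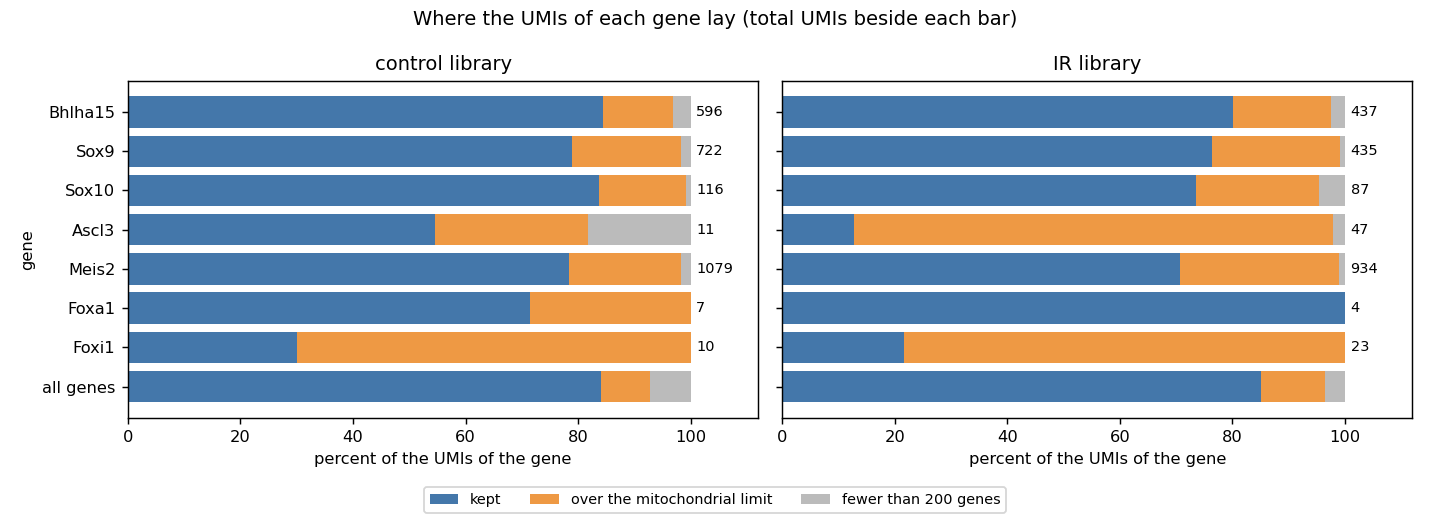
Percent of the UMIs of each gene (horizontal axis) that lay in kept cells, in barcodes over the mitochondrial limit and in barcodes with fewer than 200 genes, for the control library (left) and the IR library (right), with the total UMIs of the gene beside each bar and all genes together at the bottom. In IR the barcodes over the limit held 85.1% of the Ascl3 UMIs and 78.3% of the Foxi1 UMIs but 11.3% of the UMIs of all genes.

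Bhlha15 was a gene of the secretory classes, with its highest level in Etv1+ cells. In control, Etv1+ cells held 379 UMIs of it, 57.7 CPM (95% interval 52.0 to 63.8), acinar cells 60 UMIs, 20.1 CPM (15.4 to 25.9), and intercalated duct cells 31 UMIs, 23.4 CPM (15.9 to 33.3). In IR the same classes held 204, 52 and 46 UMIs, or 52.0 (45.1 to 59.7), 19.1 (14.2 to 25) and 32.3 (23.7 to 43.1) CPM. Intercalated duct cells were at 1.16 times (0.729 to 1.83) the acinar level in control and 1.70 times (1.12 to 2.57) in IR, an interval that leaves out 1 in IR but not without 65 abundant genes in the totals, at 1.51 (0.990 to 2.28). Striated duct cells had 1 UMI in each library, stromal cells 1 and 0, endothelial cells 1 and 0, and MECs 0 and 1. The MEC value depends on where the deep duct cells fall. Clustered without the mitochondrial limit, the MEC class (18 and 15 cells) took in 5 of 23 control and 7 of 24 IR deep intercalated duct cells and held 14 and 16 UMIs of Bhlha15, 39.0 CPM (21.3 to 65.4) and 48.4 (27.6 to 78.5). B cells, in which the gene is not known to act, gave 5.16 and 5.26 CPM and T and NK cells 3.40 and 3.34, and the source of these UMIs was not tested. Etv1+ cells stood at 2.86 times the acinar level (2.18 to 3.82) in control and 2.73 times (2.01 to 3.78) in IR. Of all genes with at least 20 UMIs in both classes together, 43.9% in control and 40% in IR were past 2-fold in either direction between these classes, with medians of 1.74 and 1.59, so a ratio past 2-fold was common here. Without 65 abundant genes in the totals the Bhlha15 ratio was 2.32 (1.77 to 3.10) and 2.20 (1.62 to 3.05). Intercalated duct cells were below Etv1+ cells, at 0.407 (0.272 to 0.587) in control and 0.621 (0.441 to 0.859) in IR, where 18.6% and 12.9% of genes were past 2-fold.

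Within the Etv1+ class, Bhlha15 had overlapping intervals in the deep and the shallow part, at 57.9 (52.2 to 64.1) against 48.4 (22.2 to 92.0) CPM in control and 51.5 (44.5 to 59.2) against 69.1 (31.6 to 131) in IR. In the plasma cell class (8 control and 31 IR cells), where Bhlha15 is known to act, no UMI was seen in the 8 control cells, which allows a share of up to 37.5% of cells with a UMI, and 4 UMIs were seen in IR, 17.0 CPM (4.62 to 43.4). That class held 2699 and 14246 UMIs of Jchain, the chain that joins secreted antibodies, and 37 and 250 of Xbp1, the unfolded protein response factor of secretory cells.

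The IR to control ratio of Bhlha15 stayed within 1.5-fold in each of the main secretory and duct classes. It was 0.903 (0.758 to 1.07) in Etv1+ cells, 0.946 (0.640 to 1.40) in acinar cells and 1.38 (0.856 to 2.25) in intercalated duct cells. All 3 intervals include 1. In the deep cells of the intercalated duct class, described further on, it was 1.67 (0.975 to 2.89), where 35.7% of all genes were past 1.5-fold. The median ratio of all genes with at least 20 UMIs was 1.18 in Etv1+ cells, 1.24 in acinar cells and 1.07 in intercalated duct cells. Relative to that median, Bhlha15 was at 0.764 (0.641 to 0.908) in Etv1+ cells, below 1 beyond counting error, and at 0.761 (0.514 to 1.12) in acinar cells. In Etv1+ cells 19.4% of genes had a lower ratio, so Bhlha15 was in the lower part of the range of genes but not at its edge. Of the 12 genes listed as Bhlha15 targets or genes of acinar maturation, 9 had at least 20 UMIs in Etv1+ cells, 1 was past 1.5-fold higher in IR and none lower, with a median ratio of 1.30 beside 1.18 for all genes. The background was 26.8% past 1.5-fold (21.8% higher and 5.07% lower). The 1 gene was Tpd52, a vesicle traffic protein, with 299 control and 270 IR UMIs, a ratio of 1.51 (1.28 to 1.79). Nupr1, a stress-responsive chromatin protein, had 2191 and 1745 UMIs, a ratio of 1.34 (1.25 to 1.42), Xbp1 had 854 and 664, a ratio of 1.30 (1.18 to 1.44), and Copz2, a coat protein of Golgi vesicles, had 577 and 405, a ratio of 1.18 (1.03 to 1.34). Rab3d, a secretory granule GTPase and direct target of Bhlha15, had 388 and 220 UMIs, a ratio of 0.951 (0.802 to 1.12), near that of Bhlha15 itself. In acinar cells 8 of the 12 had enough UMIs and none was past 1.5-fold (background 32.2%), with a median of 1.23, and in intercalated duct cells 8 had and none was past it (29.4%), with a median of 0.898.

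**Figure D2:**
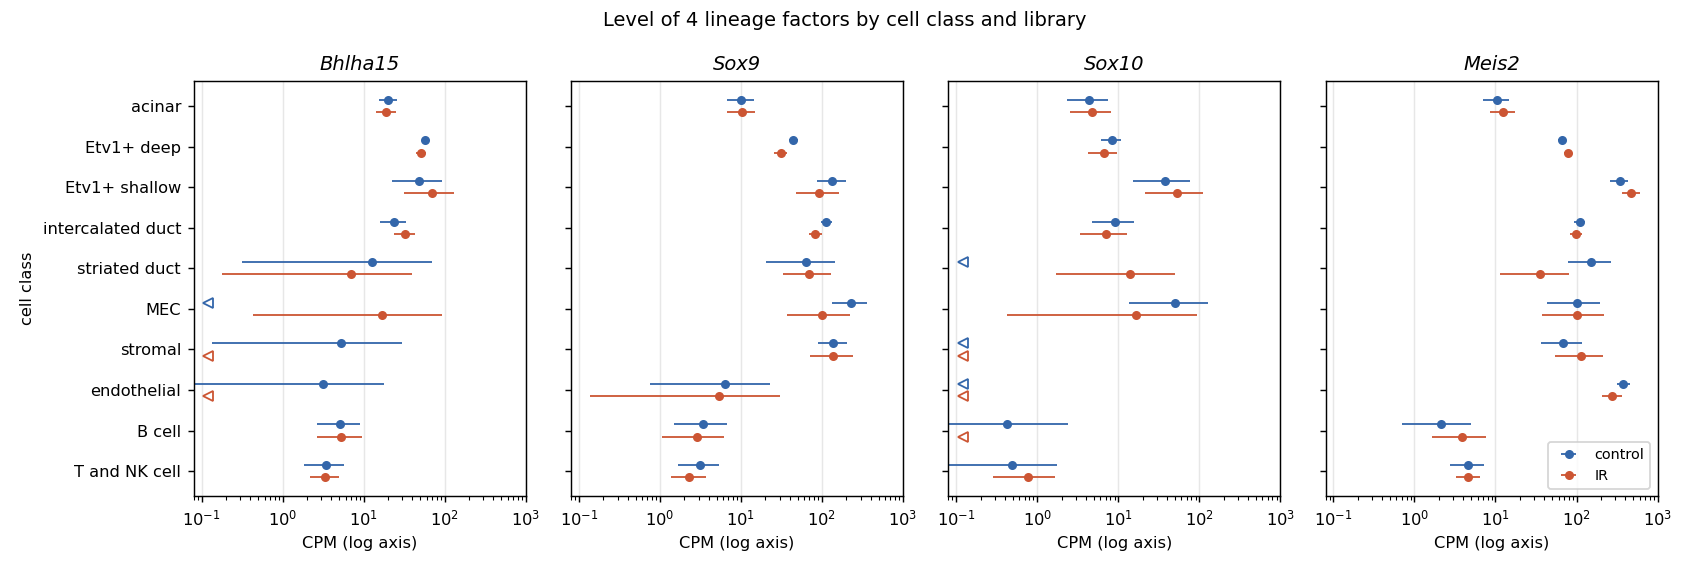
Level of Bhlha15, Sox9, Sox10 and Meis2 in CPM (horizontal log axis) by cell class (vertical axis) in the control and IR libraries, with points for the level, bars for the 95% Poisson intervals and open triangles at the left edge for classes without a UMI. Bhlha15 was highest in the Etv1+ parts in control, Sox9 had overlapping intervals in stromal cells (138 CPM) and intercalated duct cells (113), and Meis2 was highest in endothelial cells (379) and in the shallow Etv1+ part (339), all in control. These levels use all UMIs as the total, and 1 cell held 17 of the 26 stromal UMIs of Sox9 in control.

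Sox9 was spread over more lineages than Bhlha15. With all UMIs as the total, its level was high in duct cells, MECs and stromal cells and lower in acinar cells. In control, MECs held 18 UMIs, 226 CPM (134 to 356), stromal cells 26, 138 CPM (90.0 to 202), intercalated duct cells 150, 113 CPM (96.0 to 133), striated duct cells 5, 62.9 CPM (20.4 to 147), Etv1+ cells 309, 47.0 CPM (41.9 to 52.5), and acinar cells 30, 10.1 CPM (6.79 to 14.4). With all UMIs as the total, the stromal interval overlapped those of MECs and of intercalated duct cells. MECs and intercalated duct cells lay apart from each other by a narrow margin. The striated duct interval was wide enough to overlap all of these and Etv1+ cells. In IR the levels were 101 (37.0 to 219) in MECs, 138 (71.1 to 240) in stromal cells, 83.0 (68.7 to 99.4) in intercalated duct, 69.9 (33.5 to 129) in striated duct, 32.9 (27.5 to 39.1) in Etv1+ and 10.3 (6.82 to 14.8) in acinar cells. Endothelial cells had 2 and 1 UMIs, B cells 3.44 and 2.87 CPM, and T and NK cells 3.16 and 2.31. The ratio of intercalated duct to acinar cells was 11.3 (7.57 to 17.3) in control and 8.08 (5.32 to 12.7) in IR, where 47.8% and 41% of genes were past 2-fold. That of intercalated duct to Etv1+ cells was 2.41 (1.97 to 2.94) and 2.52 (1.95 to 3.26), and that of Etv1+ to acinar cells 4.67 (3.20 to 7.04) and 3.21 (2.12 to 5.01). Over whole classes the order acinar, Etv1+, intercalated duct was the same in both libraries, but in control the upper step rested on the 23 deep cells described next.

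Most of the intercalated duct signal came from very deep cells. Its deepest cells on a second clustering, 23 control and 24 IR cells with medians of 44753 and 26388.5 UMIs, held 137 of the 150 control UMIs and 71 of the 118 IR UMIs of Sox9. They were at 136 CPM (114 to 160) in control and 96.2 (75.1 to 121) in IR, against 41.7 (22.2 to 71.2) and 68.7 (50.5 to 91.4) CPM in the other 104 and 125 intercalated duct cells. In control these other cells overlapped the Etv1+ class as a whole (41.9 to 52.5). A single control cell held 51 of the UMIs. It had 48195 UMIs and 6457 genes, 2 UMIs of MEC markers and a doublet score of 0.0516. The deep cells also held all 9 MEC markers, at 195 CPM in control and 280 in IR. That compares with 11039 and 6163 in MECs, 76.9 and 89.2 in the other intercalated duct cells and 1.57 and 1.85 in deep Etv1+ cells. At least 3 MEC markers were seen in 6 of 23 and 9 of 24 deep cells, and their part in the Sox9 level was not tested. Against Etv1+ cells of like depth, the deep cells were at 3.05 in control and 3.11 in IR for Sox9, 1.88 and 2.07 for Meis2 and 0.461 and 0.869 for Bhlha15 (23.4% and 25.2% of genes past 2-fold). Among shallow cells the control order was reversed with all UMIs as the total. Shallow Etv1+ cells held Sox9 at 135 CPM (87.1 to 199), the other intercalated duct cells (median 1253.5 UMIs) at 41.7. Without 65 abundant genes their ratios to acinar cells overlapped, at 7.88 (4.44 to 13.9) and 4.29 (2.06 to 8.48). In IR, shallow Etv1+ cells were at 92.1 CPM (47.6 to 161), overlapping the others (median 4825). Meis2 stood at 32.6 and 38.2 times acinar cells in the former and 6.16 and 2.46 in the latter. The control Sox9 ratios of the whole intercalated duct class and of its deep cells include the cell with 51 UMIs and were not recomputed without it.

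Sox9 was lower in IR in Etv1+ cells beyond counting error, under every processing alternative tried (0.573 to 0.769). The ratio was 0.700 (0.566 to 0.863), and 0.592 (0.479 to 0.730) relative to the median gene, with 6.52% of genes lower. It was 0.695 (0.555 to 0.864) in the deep part and 0.685 (0.313 to 1.41) in the shallow part (40% of genes past 1.5-fold there), and 0.700 again without the cell of each library that held most Sox9. The unscaled ratio stayed within 1.5-fold, and the ratio relative to the median was past it. Acinar cells, with 30 and 28 UMIs, were at 1.02 (0.587 to 1.77), an interval that holds both 1 and the Etv1+ value. In intercalated duct cells the ratio was 0.731 (0.570 to 0.937), but 0.993 (0.748 to 1.32) without the top cell of each library, the control one being the cell with 51 UMIs. Its deep cells were at 0.709 (0.525 to 0.951), or 0.959 (0.676 to 1.35) without those cells, and the other intercalated duct cells at 1.65 (0.878 to 3.32), or 1.36 (0.673 to 2.96), where 39.1% of genes were past 1.5-fold. The mix of these other cells differed between the libraries. Of the parts made by the second clustering, 1 held 6 of the 104 control and 65 of the 125 IR cells. By part, Sox9 was at 121 and 236, 28.6 and 135, and 32.7 and 47.2 CPM in control and IR. What the mix adds to the ratio was not tested. Stromal cells were at 0.999 (0.459 to 2.05), of which 1 control cell held 17 of 26 UMIs, and at 2.98 (1.05 to 8.48) without the top cells, in a class where 45% of genes were past 1.5-fold. MECs, with 18 and 6 UMIs, were at 0.447 (0.145 to 1.17), where 45.5% of genes were past 1.5-fold, and at 0.962 (0.609 to 1.51) from 44 and 39 UMIs without the mitochondrial limit.

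Sox10 was low, and most of its UMIs lay in epithelial cells. Etv1+ cells held 60 control UMIs, 9.13 CPM (6.96 to 11.7), and 32 IR UMIs, 8.16 (5.58 to 11.5). Intercalated duct cells held 12 and 10, at 9.08 (4.69 to 15.9) and 7.03 (3.37 to 12.9), and acinar cells 13 and 13, at 4.36 (2.32 to 7.46) and 4.76 (2.54 to 8.15). Etv1+ and intercalated duct cells did not differ beyond their intervals. MECs held 4 and 1 UMIs, 50.1 CPM (13.7 to 128) in control (22.3, 9.62 to 43.9, without the mitochondrial limit), striated duct cells 0 and 2, and stromal and endothelial cells none. Macrophages held 4 and 0, B cells 1 and 0, and T and NK cells 2 and 6. The Etv1+ to acinar ratio was 2.09 (1.14 to 4.15) in control and 1.71 (0.875 to 3.56) in IR. The IR to control ratio was 0.894 (0.563 to 1.40) in Etv1+ cells and 1.09 (0.466 to 2.56) in acinar cells, and no difference was detectable at this depth. Sox10 also marks Schwann cells, and of 7 of their genes 6 had a UMI in the 80 control cells with Sox10 and 2 in the 60 IR cells, of which 69 and 53 were epithelial. Among them Mbp gave 15 UMIs in control and 4 in IR, Cdh19 5 and 0, Foxd3 3 and 0, and S100b none in either. Erbb3, a neuregulin receptor that Schwann cells share with the Etv1+ class, had 55 UMIs in 31 control cells and 15 in 13 IR cells.

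Meis2 was the most widespread of the 7, in duct, Etv1+, MEC, stromal and endothelial cells. In control, endothelial cells held 120 UMIs, 379 CPM (314 to 453), striated duct cells 12, 151 CPM (78.0 to 264), intercalated duct cells 145, 110 CPM (92.5 to 129), MECs 8, 100 CPM (43.3 to 198), Etv1+ cells 484, 73.6 CPM (67.2 to 80.5), stromal cells 13, 68.9 CPM (36.7 to 118), and acinar cells 31, 10.4 CPM (7.07 to 14.8). In IR the levels were 275 (205 to 362) in endothelial, 115 (55.0 to 211) in stromal, 101 (37.0 to 219) in MEC, 99.1 (83.4 to 117) in intercalated duct, 91.8 (82.6 to 102) in Etv1+, 34.9 (11.3 to 81.5) in striated duct and 12.5 (8.63 to 17.4) in acinar cells. In control, with all UMIs as the total, endothelial cells stood above all the other classes named beyond the intervals and acinar cells below them. In IR the stromal level was 0.417 times (0.189 to 0.831) the endothelial one, the MEC interval overlapped that of endothelial cells, and the acinar interval that of striated duct cells. A Meis2 UMI was seen in 44 of 79 control and 26 of 42 IR endothelial cells, 55.7% and 61.9%, against 0.597% and 0.837% of B cells (medians 2733 and 3451 UMIs in endothelial cells, 2538.5 and 2177 in B cells). The Etv1+ to acinar ratio of Meis2 was 7.08 (4.92 to 10.5) in control and 7.37 (5.18 to 10.8) in IR, and the intercalated duct to acinar ratio 10.5 (7.11 to 16.1) and 7.95 (5.44 to 11.9). Without the 65 abundant genes the first of these was 5.74 and 5.95, and the second 9.02 (6.09 to 13.8) and 7.06 (4.83 to 10.6). On that scale endothelial cells were at 12.1 (8.09 to 18.6) and 7.83 (4.98 to 12.5) times acinar cells, and did not stand apart from intercalated duct cells. The shallow Etv1+ part was at 19.2 (12.3 to 30.6) and 22.3 (14.5 to 35.0).

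Within the Etv1+ class, Meis2, Sox9 and Sox10 were higher in the shallow than in the deep part. For Meis2 the shallow part was at 339 CPM (261 to 434) in control and 476 (365 to 610) in IR, 5.15 times (3.88 to 6.72) and 6.05 times (4.53 to 7.98) the deep part. Sox9 was at 3.03 (1.93 to 4.56) and 2.98 (1.5 to 5.41) times, Sox10 at 4.54 (1.74 to 10.0) and 8.15 (2.98 to 19.4) times from 7 UMIs in each shallow part, and Bhlha15 at 0.836 and 1.34 times. Between these parts 61.6% of genes in control and 62.2% in IR were past 2-fold, with medians of 2.12 and 2.14. The 16 secretory genes took 45.2% of control and 40.3% of IR UMIs in the shallow part and 61.6% and 57.7% in the deep part. With at least 500 genes per cell the Meis2 ratio was 1.53 (1.13 to 2.04) and 1.59 (1.16 to 2.14), and the Sox9 ratio turned to 0.567 (0.307 to 0.966) and 0.951 (0.507 to 1.65), and that of Sox10 in control to 0.940 (0.247 to 2.55).

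The Meis2 ratio of IR to control in Etv1+ cells was 1.25 (1.09 to 1.43), close to the median of all genes in that class, and relative to the median it was 1.06 (0.918 to 1.21). In acinar cells it was 1.20 (0.714 to 2.02), or 0.962 relative to the median. Intercalated duct cells were at 0.904 (0.712 to 1.15), with the deep cells at 1.31 (1.01 to 1.70) and the other cells at 0.479 (0.247 to 0.931) from 20 and 21 UMIs. By part of these other cells, whose mix differed between the libraries, Meis2 was at 218 and 168, 43.0 and 67.5, and 32.7 and 16.3 CPM. The control and IR intervals overlapped in each part, and what the mix adds to the ratio was not tested. Endothelial cells were at 0.725 (0.512 to 1.01), where 27.4% of genes were past 1.5-fold. Without the mitochondrial limit, when the class held 118 control and 113 IR cells, they were at 0.584 (0.434 to 0.780) from 146 and 72 UMIs. Stromal cells, with 13 and 10 UMIs, were at 1.66 (0.653 to 4.11). Of the 6 Pbx and Pknox partners of Meis proteins, 3 had at least 20 UMIs in Etv1+ cells and none was past 1.5-fold (26.8% of all genes), a count too small to read. Pbx2 had 19 and 14, and Pknox1 had 34 and 15, a ratio of 0.740 (0.374 to 1.40).

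**Figure D3:**
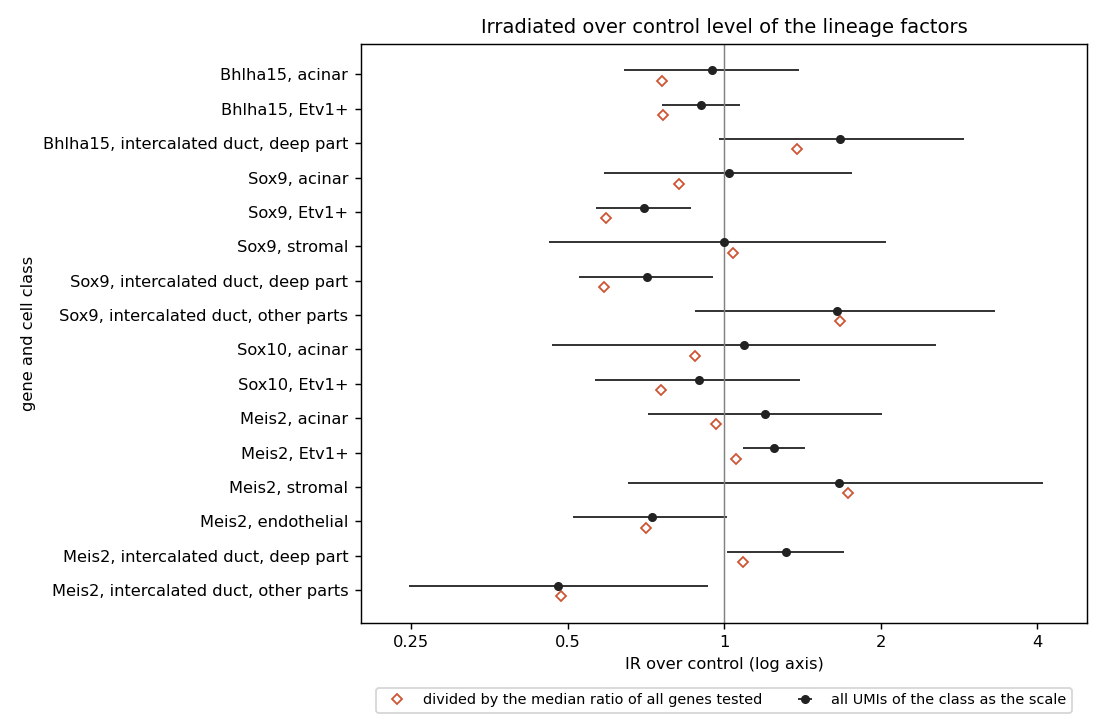
IR over control ratio (horizontal log axis) of each gene in each class with at least 20 UMIs of it in both libraries together, for acinar, Etv1+, intercalated duct (deep cells and the others apart), stromal and endothelial cells. Filled points and bars give the ratio and its 95% interval, and open diamonds the ratio divided by the median of all genes of the class. Sox9 in Etv1+ cells lay at 0.700, or 0.592 against the median, and Meis2 in the same cells at 1.25, or 1.06.

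Counted over acinar, Etv1+ and intercalated duct cells, none of the 12 ratios of Bhlha15, Sox9, Sox10 and Meis2 was past 1.5-fold between IR and control, against 32.2%, 26.8% and 29.4% of all genes in these classes. Over the epithelial cells as 1 group the ratios were 0.858 (0.740 to 0.993) for Bhlha15, 0.770 (0.663 to 0.892) for Sox9, 0.894 (0.628 to 1.27) for Sox10 and 1.07 (0.955 to 1.20) for Meis2, where the median gene was at 1.15 and 22.8% of genes were past 1.5-fold. Shares of cells with a UMI also move with depth. A UMI of Bhlha15 was seen in 52.3% of control and 37.8% of IR Etv1+ cells, of Sox9 in 43.2% and 31.8%, of Sox10 in 19.1% and 12.4%, and of Meis2 in 64.3% and 59.2%, while B cells gave 1.43% and 1.32%, 0.955% and 0.718%, 0.119% and 0%, and 0.597% and 0.837%. With each cell thinned to 1000 UMIs, which leaves 212 and 188 Etv1+ cells, the expected shares were 5.62% and 5.35% for Bhlha15, 5.32% and 4.50% for Sox9, 0.916% and 1.33% for Sox10, and 10.7% and 15.4% for Meis2. The order of the libraries was kept for Bhlha15 and Sox9 and turned for Sox10 and Meis2. With cells thinned to 500 UMIs that of Bhlha15 turned as well, at 2.86% and 3.08%, while Sox9 was at 3.13% and 2.93%. For 0 of 836 B cells with Sox10 in IR, a share of up to 0.359% remains possible.

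UMIs of the 4 measurable factors were often found in the same Etv1+ cells. In Etv1+ cells 75 of the 126 control cells with Bhlha15 also had Sox9 and 104 had Meis2, and in IR 46 and 70 of 88 did. Of the cells with Sox10, 42 of 46 in control and 22 of 29 in IR also had Meis2. The Etv1+ cells with UMIs of 2 of these genes had medians of 41734.5 to 56560 UMIs over the 6 pairs in both libraries, against 20306 and 5414 in the whole class. In acinar cells, with medians of 5175.5 and 5257 UMIs, 3 of 56 control cells and 8 of 48 IR cells with Bhlha15 also had Sox9. These counts were not compared with what the levels and depths of the cells alone would give. The median doublet score was 0.0631 in control and 0.0656 in IR deep Etv1+ cells.

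Ascl3 and Foxi1 had few UMIs in the kept cells, and most of their IR UMIs lay in striated duct cells over the mitochondrial limit. Among kept cells Ascl3 had 2 and 4 UMIs in striated duct cells, 2 and 0 in Etv1+ cells, and 1 in each library in B cells and in T and NK cells. Foxi1 had 2 and 1 in striated duct cells, 0 and 1 in Etv1+ cells, 1 and 1 in macrophages and 0 and 2 in T and NK cells. All other classes of kept cells had none of either. Clustered without the limit, the striated duct class held 134 control and 127 IR cells, of which 42 and 49 (31.3% and 38.6%) were over it. That share was 31.2% and 31.5% in Etv1+ cells and 18.9% and 13.6% in acinar cells. The class then held 4 control and 44 IR UMIs of Ascl3 and 9 and 19 of Foxi1. Cells over the limit held 2 and 39 of these Ascl3 UMIs and 7 and 18 of these Foxi1 UMIs. Over all genes, the cells over the limit held 158761 of the 239742 control UMIs of the class. In IR they held 196929 of 344537, and 1 of these barcodes alone held 69392. Acinar, intercalated duct, MEC, stromal and endothelial cells had no UMI of either gene in this setting.

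In that class Ascl3 was at 16.7 CPM (4.55 to 42.7) in control and 128 (92.8 to 171) in IR, a ratio of 7.65 (2.79 to 29.3). Of all genes in the class 43.5% were past 1.5-fold (11.6% higher), with a median ratio of 0.835. The setting without the limit was added after the IR UMIs of Ascl3 had been seen over the limit, so this ratio restates that observation and is a description. Without the top cell of each library, which in IR held 14 UMIs, it was 7.06 (2.20 to 36.2). The UMIs lay in 4 control and 15 IR cells. Foxi1 was at 37.5 (17.2 to 71.3) and 55.1 (33.2 to 86.1), a ratio of 1.47 (0.633 to 3.69) whose interval includes 1. The median mitochondrial share of the class was 0.738% in control and 3.68% in IR, and its part in the Ascl3 difference was not tested. Sox9 in the same class had 69 and 59 UMIs, at 288 (224 to 364) and 171 (130 to 221) CPM, a ratio of 0.595 (0.413 to 0.855), or 0.746 (0.471 to 1.18) without the top cells. Meis2 had 84 and 101, at 350 (279 to 434) and 293 (239 to 356), a ratio of 0.837 (0.620 to 1.13), or 0.722 (0.510 to 1.02) without the top cells. Of these, 64 and 49 Sox9 UMIs and 72 and 95 Meis2 UMIs lay in cells over the limit. Striated duct cells stood above intercalated duct cells in this setting, at 2.35 (1.72 to 3.18) and 2.26 (1.60 to 3.18) for Sox9 and 3.06 (2.28 to 4.08) and 3.11 (2.36 to 4.11) for Meis2, where 68.8% and 56.1% of genes were past 2-fold.

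A UMI of Foxi1 or Ascl3 was seen in 38 barcodes, 14 control and 24 IR, of which 16 were kept and 21 were over the mitochondrial limit. Without the limit 23 of them (6 and 17) fell into the striated duct class, 12 into other classes, and 3 had fewer than 200 genes. Some of these 3 are also among the 21 over the limit. Both genes were seen in 6 barcodes, 2 control and 4 IR, all in the striated duct class. The IR barcode with the most Ascl3 had 14 UMIs of it and 7 of Foxi1 among 5712 UMIs. The deepest, with 69392 UMIs and 7408 genes, had 5 of Ascl3, 7 of Foxi1, 20 of Sox9 and 36 of Meis2. The control barcode with 8031 UMIs had 1 of Ascl3 and 5 of Foxi1, and that with 566 had 1 and 2. The remaining IR barcodes had 4 and 2 UMIs among 15884 and 2 and 1 among 6363. In 1 IR cell, with 1741 UMIs and 37.0% mitochondrial, Ascl3 had 7 UMIs and Foxi1 none.

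**Figure D4:**
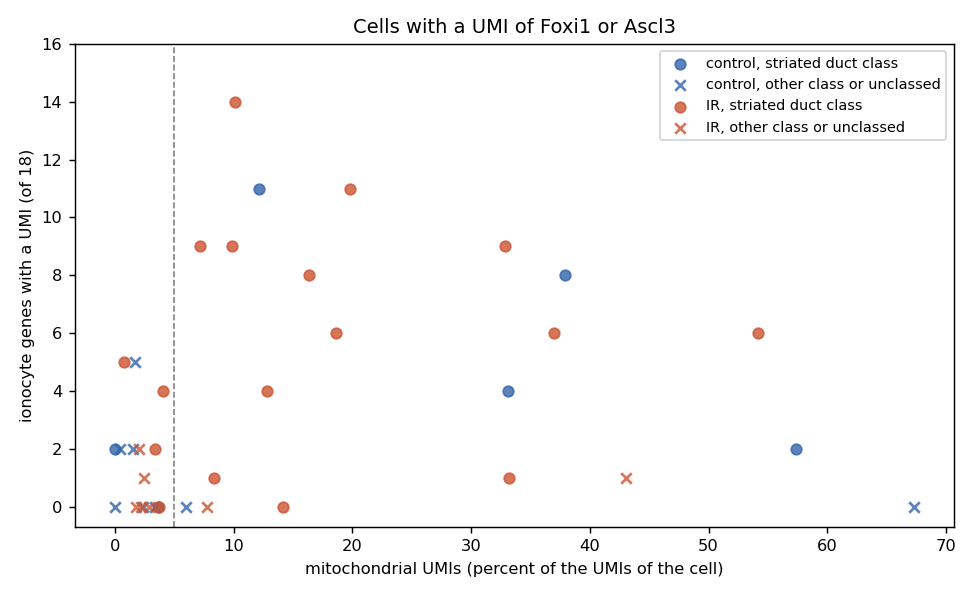
Each of the 38 barcodes with a UMI of Foxi1 or Ascl3, by its mitochondrial share (horizontal axis, percent of its UMIs, with the 5% limit dashed) and the number of 18 ionocyte genes with a UMI (vertical axis). Circles are cells of the striated duct class and crosses all others. The barcodes with 6 or more ionocyte genes were all striated duct cells over the limit, reaching 14 genes in IR and 11 in control.

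The same cells carried RNA of other ionocyte genes, a list of 18 that includes subunits of the proton pump, chloride channels and transporters. In the striated duct class without the limit, cells with Foxi1 or Ascl3 held 74 UMIs of the list in control (6 cells) and 397 in IR (17 cells), 4895 CPM (3843 to 6145) and 2764 (2498 to 3049). Cells of the class without either gene stood at 1487 (1332 to 1655) and 851 (728 to 989), ratios of 3.29 (2.52 to 4.25) and 3.25 (2.71 to 3.91). Without the deepest cell the IR ratio was 4.49 (3.70 to 5.46). Other classes were lower still, at 55.1 and 61.0 CPM in acinar cells, 255 and 304 in Etv1+ cells, 244 and 312 in intercalated duct cells and 190 and 181 in immune cells. At least 3 genes of the list were seen in 3 of 6 and 12 of 17 cells with Foxi1 or Ascl3, against 19 of 128 and 10 of 110 without. The cells with these genes were deeper, with a median of 1891 against 1112 UMIs over both libraries, and of higher mitochondrial share, 12.8% against 2.71%. Among kept cells the comparison rests on 2 UMIs in 2 control cells and 13 in 3 IR cells, with ratios of 1.89 (0.225 to 7.07) and 3.08 (1.58 to 5.54).

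The genes of the list differed. Pooled over both libraries, cells with Foxi1 or Ascl3 held 158770 UMIs in all and the other striated duct cells 425509. Atp6v1g3, a proton pump subunit, had 11 UMIs in the former and 1 in the latter, Hepacam2 19 and 3, Atp6v1b1, another pump subunit, 8 and 2, and Dmrt2, a transcription factor, 7 and 0. Slc12a2, the sodium, potassium and chloride cotransporter, had 168 and 59, in 17 of 23 cells and 36 of 238. Cftr, the chloride channel, had 20 and 24, and Bsnd, a chloride channel subunit, 10 and 7. Tfcp2l1, a duct transcription factor, had 111 and 249, a pooled CPM ratio of 1.19. The pool mixes the libraries unequally, as control gave 15118 UMIs of the cells with Foxi1 or Ascl3 and 224624 of the others. Within libraries Tfcp2l1 was at 1257 against 815 CPM in control and 640 against 329 in IR.

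Foxa1 could not be placed. The kept cells held 5 UMIs in control and 4 in IR, 2 of them in 1 control intercalated duct cell, the cell that also held 51 UMIs of Sox9, and 1 in an IR intercalated duct cell. The others lay in T and NK cells (3 and 1), a B cell and a dendritic cell of IR. No UMI was seen in 386 control and 385 IR acinar cells, which allows shares of up to 0.777% and 0.779% of cells with a UMI, or in 241 and 233 Etv1+ cells (up to 1.24% and 1.29%).

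Of 12 relatives of these factors (such as Meis1, Foxa2 and Sox8), 3 had at least 20 UMIs in Etv1+ cells, and 1 was past 1.5-fold higher, as were 21.8% of all genes. That was Meis3, with 11 and 11 UMIs, at 1.68 (0.659 to 4.27). Meis1 had 123 and 89, a ratio of 1.21 (0.913 to 1.61), and Ascl2 26 and 12, a ratio of 0.774 (0.356 to 1.59). In acinar cells Meis1 had 6 and 19 UMIs, at 3.46 (1.33 to 10.6). Of 24 other lineage factors of gland epithelium, 16 had enough UMIs in Etv1+ cells, 2 were past 1.5-fold higher and 1 lower (all genes 21.8% and 5.07%), no larger a share than the 26.8% of all genes, with a median of 1.08 beside 1.18 for all genes. Runx1 had 43 and 52 UMIs, a ratio of 2.03 (1.33 to 3.11), Grhl2 31 and 29, a ratio of 1.57 (0.912 to 2.69), and Tfap2b, an AP-2 factor, 55 and 16, a ratio of 0.488 (0.261 to 0.864). In intercalated duct cells 16 could be compared, 1 was higher and 4 lower, with a median of 0.973, near the 29.4% of all genes past 1.5-fold. Pax9, a factor of pharyngeal and oral epithelium, was the higher one, with 99 and 165 UMIs at 1.55 (1.20 to 2.01), and Tfap2b was again among the lower ones, with 16 and 6 UMIs at 0.349 (0.112 to 0.938), beside Foxq1 at 0.548, Tfcp2l1 at 0.547 and Grhl1 at 0.639. Sox9 and Tfap2b were thus both lower in IR in Etv1+ cells, while the large counts of Ehf (452 and 285 UMIs, 1.06) and Elf5 (348 and 241, 1.16) lay near the median gene.

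Across 24 points, each a class with at least 20 cells in 1 library, the genes whose level on the log2(CPM + 10) scale ran most like that of each factor were found among 10405 genes. For Bhlha15 they were Gjb1, a gap junction protein of secretory epithelia (r = 0.91), Pycr1, a proline synthesis enzyme (0.91), Rap1gap (0.88), Bglap (0.88) and 5330417C22Rik (0.87). For Sox9 they included Rhou (0.95), Nupr1 (0.91), Hspb8, a small heat shock protein (0.91), and Ncald (0.89), and for Sox10 Kcnma1, a potassium channel (0.91), Gm42892 (0.91), B4galt6 (0.90), Entpd3 (0.90) and C2cd4b (0.89). For Meis2 they were Ptprk, a receptor phosphatase (0.97), Enah, an actin regulator (0.94), Trim2 (0.94), Yap1, the Hippo pathway coactivator (0.93), and Cpd (0.92). Among the factors themselves the highest value was that of Bhlha15 with Sox10 (0.71) and the lowest that of Bhlha15 with Meis2 (0.48). The points share 2 libraries and include parts of other points, so these values are a description. Ascl3, Foxi1 and Foxa1 had under 100 UMIs and were left out.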

How the data were processed

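The authors deposited 1 matrix of raw UMI counts per gene and barcode for each library, made with Cell Ranger 3.0.1 on mm10, with Seurat 3 also named in the submitters' processing notes. How cells were called and the annotation release are not given in the sources used here.

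Barcodes with at least 200 genes and under 5% mitochondrial UMIs were integrated by anchors and clustered in Seurat 5.3.0 (R 4.3.3) on 2000 variable genes and 30 components at resolution 0.3 (0.4 without the limit), leaving out the 7 genes. Clusters that held most markers of more than 1 cell type, and the Etv1+ cluster, were divided by a second clustering (20 components, resolution 0.8). A class name needed 3 markers, each with 5 UMIs and 2-fold higher. Doublets were kept, and an alternative left out the 6% of cells with the highest Scrublet score (scanpy 1.11.5). The linear algebra routines used were those with which MECs and stromal cells formed their own clusters, a choice made after seeing the data.

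UMIs were summed per class. Levels have exact Poisson intervals, ratios exact conditional binomial intervals and shares Clopper-Pearson intervals, all at 95% (SciPy 1.17.1, NumPy 2.4.6). Ratios were given from 20 UMIs upward, with 1.5-fold (between libraries) and 2-fold (between classes) as thresholds, and a count of 0 was given the limit of 3 counts. edgeR 4.0.16 and DESeq2 1.42.0 gave size factors only, and no test was made. Scripts were tested on simulated counts. Figures were drawn with matplotlib 3.10.9.

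The members and gene lists were chosen with earlier results of these data known. Named were the 7 genes, the 5 genes most like each factor with at least 100 UMIs, and up to 5 genes per list by UMIs. Genes named as the few of a list past a threshold, and further ionocyte, plasma cell and Schwann cell genes, were chosen after their values were seen. Some genes that this rule names are not reported here.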

Additional observations from a re-analysis of the deposited data

Results flagged for a closer look

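Barcodes over the mitochondrial limit, which the levels of kept cells do not use, held UMIs of both ionocyte factors. In IR they held 40 UMIs of Ascl3 and 18 of Foxi1, against 3 and 7 in control.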

How the results depend on the processing

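No paired analysis was possible because each condition is 1 library and the replicate numbers only follow the order of accessions, and for the same reason no replicate could be left out. Of the alternative values for IR to control ratios, 268 stayed within the counting interval of the value reported and 10 did not, and 0 ratios past 1.5-fold changed direction. Among ratios between classes 279 stayed within it, 6 did not, and 3 past 2-fold changed direction. These 3 came with at least 500 genes per cell, between the shallow and the deep Etv1+ part, where Sox9 was at 0.567 in control and 0.951 in IR and Sox10 at 0.940 in control, and the cause was not tested. The Sox9 ratio in Etv1+ cells ran from 0.573 to 0.769. With edgeR TMM factors Bhlha15 was at 0.739 and Meis2 at 1.02 in Etv1+ cells, and Meis2 was at 1.06 with DESeq2 size factors.

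Of the 4 factors whose share of Etv1+ cells was higher in control, 2 stayed so with cells thinned to 1000 UMIs and 1 with 500. Of the 20 genes most like the factors, 12 were also found with log2(CPM + 1). The share of genes past the fold in Etv1+ cells was 7.52% at 2-fold, 45% from 2 UMIs upward and 20.2% from 50 UMIs upward. Cells with both Foxi1 and Ascl3 numbered 6 over all barcodes and 1 among kept cells.

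MECs formed no class of their own with a 10% limit, without integration, with doublets left out or with other linear algebra routines, nor did stromal cells in the last 2 of these. With those routines Sox9 was at 0.712 in Etv1+ and 0.703 in intercalated duct cells. Of the alternatives, 7 were chosen after seeing the data, among them all barcodes, no top cell, the median scale and the other routines. Few cells and UMIs limit the values for MECs, stromal and striated duct cells and for Ascl3, Foxi1 and Foxa1.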
